A study of Penicillium oxalicum with 6 samples.

Results

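Penicillium oxalicum carries a set of 136 genes, of 9834 measured, that were read over a wide range of levels in mycelium libraries labelled wheat bran. In libraries labelled Avicel, each was read at a small share of its wheat bran level. The 136 genes were chosen by their measured group means. A gene was taken when its mean FPKM (fragments per kilobase of gene, scaled to the depth of the library) in bran-labelled libraries was at least 5 and under 1000 and its mean in Avicel-labelled libraries was at least 8 times lower. These limits were met by 179 genes, and 43 of them were then set aside because their ID numbers fall in 7 listed ranges. The difference between the labelled groups therefore chose these genes, and it is given for them as a description only.

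By their labels, the samples were RNA of the strain MuKu70, in which Ku70, a gene of the repair pathway that joins broken DNA ends, is mutated. Spores were raised on potato-dextrose agar at 28 °C, and hyphae were moved to basic medium with 1 of several carbon sources. There were 3 libraries (replicates F, S and T) labelled 1% Avicel for 4 hours and 3 labelled 1% wheat bran for 4 hours. The title of the series names something else, a mutant lacking POX07277 after 24 hours in Avicel. The names of the deposited tables carry that gene number and 24 hours. They begin with K for Avicel-labelled libraries and with P for bran-labelled libraries. POX07277 had 427, 375 and 331 expected counts in Avicel-labelled replicates F, S and T and 0 in each library labelled wheat bran, at least 117-fold higher against a floor of 3 counts per library (edgeR adjusted p = 8.69e-06). Strain, medium and time behind the groups are thus not settled by the labels, so the libraries are called Avicel-labelled and bran-labelled here. A difference of strain between the groups, such as the loss of POX07277, cannot be told apart from a difference of medium. Whether replicates came from separate cultures is not stated, and the p-values given for other genes reflect library-to-library spread, possibly technical in origin. A lower level can mean less RNA in every hypha or fewer hyphae that make it, which bulk RNA cannot tell apart.

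Avicel is a microcrystalline cellulose, while wheat bran brings starch, arabinoxylan, cellulose and protein together. Filamentous fungi switch sets of genes on and off with the carbon source, through transcription factors that respond to sugars released from the polymer and through repression by glucose. Genes for one secondary metabolite or one nutrient pathway often lie side by side in fungal genomes. The files give no name, product or sequence for the POX IDs. None of the 9834 IDs matched an entry of the RefSeq table for assembly ASM172317v3, so no function, genome position or sequence is given for any gene here, and ID numbers stand for the order of the IDs alone.

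The 136 genes had a median FPKM of 2.67, 3.02 and 2.44 in Avicel-labelled replicates F, S and T, against 54.3, 51.6 and 51.6 in bran-labelled replicates F, S and T. Every one of the 136 was lower in all 3 libraries labelled Avicel than in any library labelled wheat bran. The choice of genes favours this. Groups also did not overlap for a gene beside the set by number that kept 93% of its level, so nothing is read from this count. Of the 7521 genes with the same wheat bran level, 2.38% met the ratio limit. In the edgeR fit of counts over all genes (quasi-likelihood test, adjusted p under 0.05), 27.5% of the 8636 genes tested were called lower in Avicel-labelled libraries and 9.41% were called lower at 2-fold or more. All 136 passed the filter on low counts and fell under both calls, which the 8-fold limit of their choice on the same libraries largely fixes, so nothing is read from that count. In the opposite direction 37 of 7474 genes with a mean FPKM of 5 to under 1000 in Avicel-labelled libraries were at least 8 times lower in bran-labelled libraries, a share of 0.495%.

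**Figure D1:**
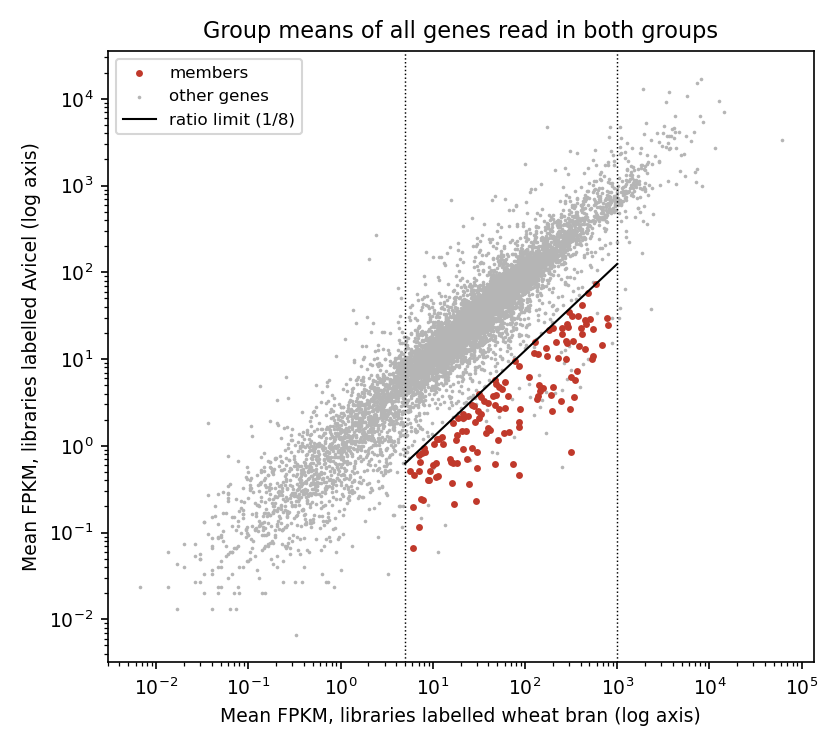
Mean FPKM of each gene in Avicel-labelled libraries (vertical, log axis) against its mean in bran-labelled libraries (horizontal, log axis). Red points are the 136 genes, grey points 9380 other genes read in both groups; 318 genes with a mean of 0 in a group are not drawn. The black line marks the 8-fold limit and the dotted lines the level limits of 5 and 1000 FPKM; grey points under the black line between them were set aside by ID number.

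The size of the difference covered a wide range. The mean level in Avicel-labelled libraries was between 12.4% and 0.268% of that in bran-labelled libraries, with a median of 5.61%. Between 8-fold and 16-fold lower were 61 genes, 36 were between 16-fold and 32-fold, 27 between 32-fold and 64-fold, and 12 beyond 64-fold. The summed FPKM of all 136 was 1037 ± 129 in Avicel-labelled libraries and 19590 ± 1290 in bran-labelled libraries (SD, n = 3 each). They took 0.0952% ± 0.0165 of the counts of a library labelled Avicel and 1.91% ± 0.114 of those of a library labelled wheat bran (SD, n = 3 each). Per library the share was 0.0973%, 0.111% and 0.0777% in Avicel-labelled replicates F, S and T and 2.04%, 1.86% and 1.83% in bran-labelled replicates F, S and T. The signal was spread over many genes: the 10 most abundant held 36.8% of the summed level in Avicel-labelled libraries and 30.3% in bran-labelled libraries, and 4 genes were in both groups of 10.

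Only part of the set was close to silence in Avicel-labelled libraries. There, 37 genes had a mean FPKM under 1, 53 had 1 to under 5, 12 had 5 to under 10 and 34 had 10 or more. The median gene of the whole table stood at 22.9 FPKM in Avicel-labelled libraries and 23.4 in bran-labelled libraries. Of the 136, 15 were above that median in Avicel-labelled libraries and 94 in bran-labelled libraries. The middle gene of the set ranked at percentile 18 of all genes in Avicel-labelled libraries and at percentile 71.4 in bran-labelled libraries. "Nearly off" thus describes the genes under 1 FPKM, and "strongly lower but read" the 34 at 10 or above.

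**Figure D2:**
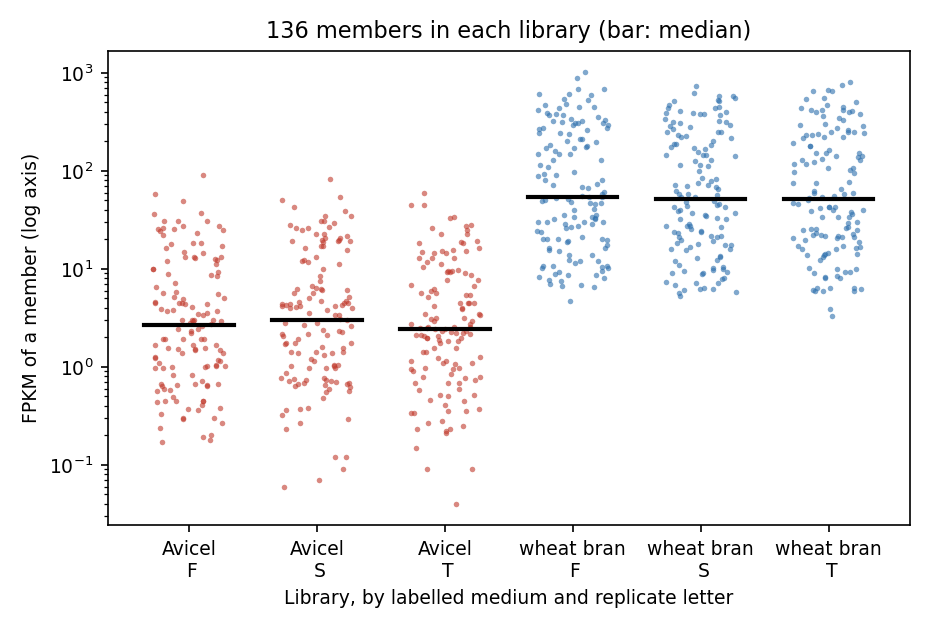
FPKM of the 136 genes in each library (vertical, log axis), with Avicel-labelled libraries in red and bran-labelled libraries in blue; each point is a gene and the bar is the median. 4 values of 0 are not drawn. Medians lie at 2.44 to 3.02 FPKM in Avicel-labelled libraries and at 51.6 to 54.3 in bran-labelled libraries.

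The 4 genes that kept the smallest share of their level differed in abundance and in how well they were counted. POX04766 had 1.49, 0.70 and 0.35 FPKM in Avicel-labelled replicates F, S and T, against 382, 318 and 247 in bran-labelled replicates F, S and T, a 373-fold lower mean. It ranked at percentile 11.4 of all genes in Avicel-labelled libraries, on 22 counts over 3 libraries, and at percentile 94.7 in bran-labelled libraries. POX04593 had 0, 0.27 and 1.10 FPKM in Avicel-labelled libraries, against 80.8, 71.7 and 108 in bran-labelled libraries. That rests on 5 and 895 summed counts, a ratio of summed levels, wheat bran over Avicel, of 193 with a 95% exact counting interval of 82.3 to 595. POX01489 had 0.29, 0.06 and 0.35 FPKM in Avicel-labelled libraries, against 33.7, 29.0 and 26.1 in bran-labelled libraries, a 127-fold lower mean. POX05092 had 0.82, 0.68 and 0.34 FPKM in Avicel-labelled libraries and 80.8, 68.2 and 75.8 in bran-labelled libraries, and was 122-fold lower on 49 counts in Avicel-labelled libraries. With POX06513, described further on, 5 genes were beyond 100-fold.

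The 4 most abundant genes in bran-labelled libraries kept very different shares. POX09620 had 24.7, 26.8 and 22.9 FPKM in Avicel-labelled replicates F, S and T, against 1013, 619 and 759 in bran-labelled replicates F, S and T. Its expected counts were not whole, which arises where a read is shared out among look-alike genes, and its effective length was 137 bases, so its level is uncertain. POX06102 had 31.0, 42.7 and 15.4 FPKM in Avicel-labelled libraries, against 896, 736 and 670 in bran-labelled libraries, a 25.9-fold lower mean in which Avicel-labelled replicate T stood lowest. POX07238 had 13.1, 17.1 and 12.98 FPKM in Avicel-labelled libraries, against 684, 582 and 800 in bran-labelled libraries, a 47.9-fold lower mean. POX08698 had 90.2, 82.6 and 44.6 FPKM in Avicel-labelled libraries and 679, 549 and 560 in bran-labelled libraries, an 8.22-fold lower mean. This gene remained at percentile 79.8 of all genes in Avicel-labelled libraries, the highest rank there of any of the 136.

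Next after POX08698 in mean level in Avicel-labelled libraries were POX08877 and POX03632. POX08877 had 58.6, 54.4 and 60.0 FPKM in Avicel-labelled replicates F, S and T, against 267, 532 and 656 in bran-labelled replicates F, S and T. Its libraries labelled Avicel were close to each other while replicate F labelled wheat bran was well below replicates S and T. POX03632 had 49.0, 50.7 and 25 FPKM in Avicel-labelled libraries and 485, 402 and 365 in bran-labelled libraries.

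The limits cut through a continuous range. Just inside the ratio limit, next to POX08698, were POX06754, with means of 9.63 ± 4.59 FPKM in Avicel-labelled libraries and 77.5 ± 18.6 in bran-labelled libraries, and POX09225, with 3.96 ± 0.55 in Avicel-labelled libraries and 32.01 ± 11.6 in bran-labelled libraries (SD, n = 3 each). Just outside it was POX04456, with 3.59 ± 1.05 FPKM in Avicel-labelled libraries and 28.7 ± 4.78 in bran-labelled libraries. Next came POX09117, with 2.39 ± 0.59 FPKM in Avicel-labelled libraries and 18.7 ± 3.67 in bran-labelled libraries, and POX05223, with 0.72 ± 0.24 FPKM in Avicel-labelled libraries and 5.57 ± 1.23 in bran-labelled libraries (SD, n = 3 each). At the lower level limit, POX00199 and POX04577 were inside with wheat bran means of 5.67 and 6.05 FPKM, and POX03898 and POX05756 outside with 4.71 and 4.38. A gene at this edge is thinly counted: POX00199 had 1, 0 and 4 counts in Avicel-labelled replicates F, S and T and 14, 19 and 19 in bran-labelled libraries, a ratio of 11.2, wheat bran over Avicel, with a 95% exact counting interval of 4.51 to 36.

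Depth limited the low side of the comparison. Libraries held 13176152 to 14598919 expected counts, and each of the 136 genes had at least 52 summed counts in bran-labelled libraries. In Avicel-labelled libraries, 28 genes had fewer than 30 summed counts and 9 had 10 or fewer. A count of 0 occurred in at least 1 library labelled Avicel for 3 genes, POX00199, POX04593 and POX09679, and in no library labelled wheat bran. POX09679 had 1, 0 and 0 counts in Avicel-labelled libraries against 86.2 in sum in bran-labelled libraries, a ratio of 92.7, wheat bran over Avicel, with an interval of 16.2 to 3702. Such intervals cover counting error only. Expected counts were not whole for 4 of the 136 genes, POX05892, POX07819, POX09620 and POX09679, and for 109 genes in all.

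Genes of every abundance class were in the set. The median share was 6.27% for the 16 genes at 5 to under 10 FPKM in bran-labelled libraries, 6.53% for 51 genes at 10 to under 50, 3.7% for 16 genes at 50 to under 100, 5.45% for 45 genes at 100 to under 500 and 3.49% for 8 genes from 500 to under 1000. The set held 4.71% of the 170 genes at 500 to under 1000 FPKM and 3.72% of the 1211 genes at 100 to under 500. It held 1.23% of the 1299 genes at 50 to under 100, 1.28% of the 3993 genes at 10 to under 50 and 1.89% of the 848 genes at 5 to under 10.

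By length, the 136 genes were shorter than the other 7342 genes of the same wheat bran level. The median effective length, taken from the ratio of count to FPKM, was 1051 bases (quartiles 582 and 1491) in the set and 1292 bases (quartiles 797 and 1959) in the others. Under 300 bases were 15 genes of the set, or 11%, and 5.43% of the others. The shortest was POX05892 at 115 bases and the longest POX01430 at 6639 bases. FPKM divides by length and entered the choice of the genes, so the lengths are a description.

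The choice of genes rested on group means, and the spread among the libraries of one group is described next. In bran-labelled libraries, the SD over 3 libraries had a median of 14.7% of the mean among the 136 genes and 7.31% among the others of the same level. It was 15% among the 43 genes set aside by ID number and 10.4% among 7 genes above the level limit that met the ratio limit, so a wide spread was not particular to the 136. The gap to the others of the same level was there at each level: 15.2% against 10.7% at 5 to under 10 FPKM, 17.8% against 7.22% at 10 to under 50, 14.2% against 6.58% at 50 to under 100, 12.8% against 6.82% at 100 to under 500 and 15.5% against 7.72% at 500 to under 1000. An SD above 30% of the mean occurred in 15 of the 136, or 11%, and in 139 of the 7342 others, or 1.89%. The genes of the set are shorter (lengths above), and a shorter gene holds fewer reads at the same FPKM; the part of this in the spread was not tested.

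The highest of the bran-labelled libraries was at least 2 times the lowest for 9 of the 136 genes (6.62%) and for 76 of the 7342 others (1.04%). Replicate S was at least 2 times replicate T for 4 of the 136 genes (2.94%) and for 10 of the 7342 others (0.136%). Replicate F was at least 2 times replicate T for 4 genes of the set (2.94%), POX03095, POX03096, POX04577 and POX06513, and for 0.368% of the others. Replicate F was at least 2 times replicate S for POX02210 alone in the set (0.735%) and for 0.259% of the others. POX06513 had 2.43, 3.05 and 2.48 FPKM in Avicel-labelled replicates F, S and T, against 305, 511 and 118 in bran-labelled replicates F, S and T. POX07516 had 3.03, 4.66 and 3.42 FPKM in Avicel-labelled libraries, against 325, 467 and 220 in bran-labelled libraries. POX03095 had 1.38, 1.01 and 1.14 FPKM in Avicel-labelled libraries, against 50.3, 84.8 and 16.3 in bran-labelled libraries. Its neighbour by number, POX03096, had 0.45, 0.63 and 0.45 FPKM in Avicel-labelled libraries, against 8.25, 9.93 and 3.27 in bran-labelled libraries. POX06513, POX07516, POX03095 and POX03096 all ran S, F, T from high to low in bran-labelled libraries, while their levels in Avicel-labelled libraries lay between 0.45 and 4.66 FPKM. POX03095 and POX06513 were the 2 of 7699 genes at 5 FPKM or more in bran-labelled libraries with S at least 1.3 times F, F at least 1.3 times T and S at least 3 times T, limits set after the values were seen. With 3624 and 21587 summed counts in bran-labelled libraries, these 2 genes were among the well counted ones.

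**Figure D3:**
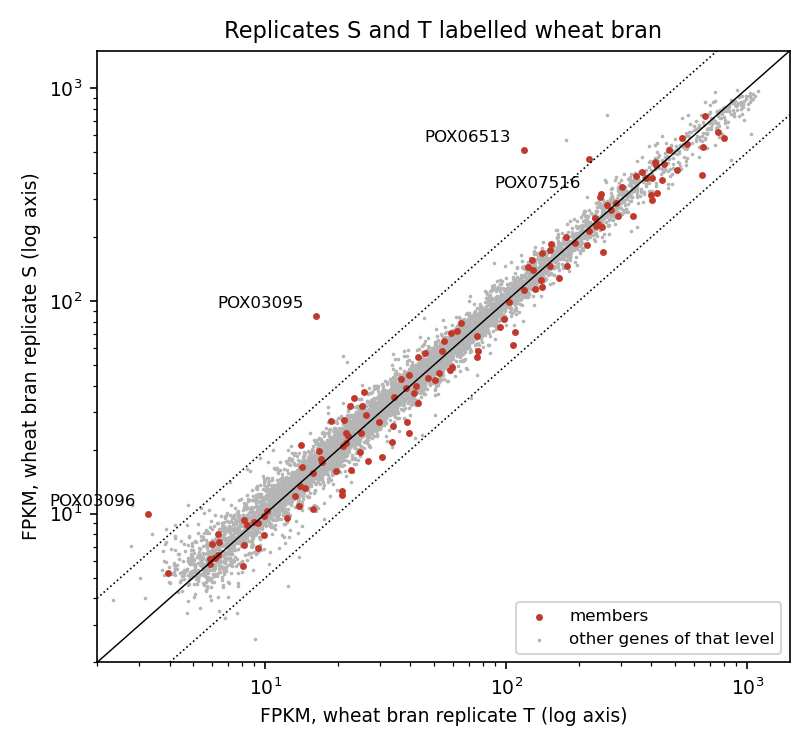
FPKM in replicate S (vertical, log axis) against replicate T (horizontal, log axis), both labelled wheat bran. Red points are the 136 genes, grey points 7342 other genes of the same mean level, the solid line equality and the dotted lines a 2-fold difference; the 4 named genes lie above the upper dotted line.

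Other genes differed between wheat bran replicates in another order. POX09225 had 4.05, 3.37 and 4.45 FPKM in Avicel-labelled libraries and 19.9, 33.3 and 42.9 in bran-labelled replicates F, S and T, and POX04369 had 0.66, 0.55 and 2.41 FPKM in Avicel-labelled libraries, against 7.05, 10.5 and 15.8 in bran-labelled libraries. With POX08877, these 3 genes (2.21% of the set) had replicate T labelled wheat bran at 2 times replicate F or more. Among the 7342 others it was 0.163%. POX04369 also had the largest relative spread of the set in Avicel-labelled libraries among genes with a mean of 1 FPKM or more, and the smallest gap between the groups: its lowest library labelled wheat bran was 2.93 times its highest labelled Avicel. Across the set that gap had a median of 11.8, and for 96 of 136 genes it was 8 or more.

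The order of the Avicel-labelled libraries differed from gene to gene, and some orders were more frequent than others. Among the 99 genes of the set with a mean of at least 1 FPKM there, replicate T was the lowest library for 48 (48.5%) and replicate S the highest for 46 (46.5%). Among 5497 other genes of the same range of Avicel level, replicate T was lowest for 26.5% and replicate S highest for 23.3%. The full order S, F, T was seen in 33 of the 99 genes (33.3%) and in 7.22% of the others. The remaining genes of the set had other orders, the next most frequent being T, S, F in 21.2% and F, S, T in 15.2%. The 43 genes set aside by ID number had the order S, F, T in their sums, with summed levels of 277, 387 and 145 FPKM in Avicel-labelled replicates F, S and T. So did 7 genes above the level limit that were also at least 8 times lower in Avicel-labelled libraries, at 4457, 6145 and 3454 FPKM. The same order was therefore also seen outside the 136 genes.

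In bran-labelled libraries, replicate F was highest for 74 of the 136 genes (54.4%), against 40.7% of the 7313 others without ties, and lowest for 21 (15.4%), against 32.3%. Replicate S was lowest for 61 (44.9%), against 24.2%. Replicate T labelled wheat bran was lowest about as often in both, at 39.7% and 43.4%. These libraries share depth and preparation across all genes, so the counts of genes describe the libraries and were not tested.

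**Figure D4:**
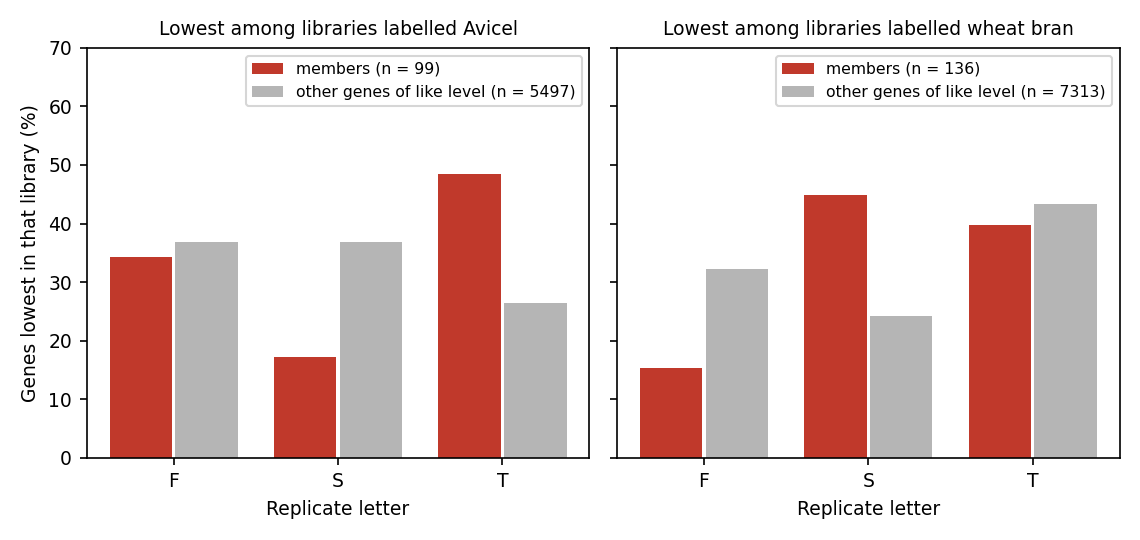
Share of genes (%) for which each replicate was the lowest of its group, for Avicel-labelled libraries (left panel, genes with a mean of 1 FPKM or more) and wheat bran (right panel). Red bars are genes of the set and grey bars other genes of like level; replicate T labelled Avicel was lowest for 48.5% and 26.5%, and replicate S labelled wheat bran for 44.9% and 24.2%.

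The 136 genes were scattered over the ID numbers, from 199 to 9679, though not evenly. IDs that begin with POX08, POX04 and POX03 made up 24, 23 and 20 of them, and IDs that begin with POX00 made up 5. No other gene of the set was at an adjacent number for 104 genes, and the median distance to the nearest one was 17. The other 32 genes formed 10 pairs and 4 triplets of consecutive numbers. Within 10 numbers of one of the ranges set aside were 11 genes, among them POX05887 and POX05888, POX09463 to POX09465 and POX09676, POX09677 and POX09679. Another gene of the set lay within 10 numbers for 53 of the 136 genes, and 29 genes made up 9 chains of at least 3 genes with steps of 10 numbers or fewer. The set is thus only partly scattered by ID number.

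The triplet POX08107 to POX08109 was the most abundant. POX08108, the middle gene, had 12.2, 22.8 and 5.64 FPKM in Avicel-labelled replicates F, S and T, against 182, 146 and 179 in bran-labelled replicates F, S and T. POX08107 had 2.22, 4.40 and 0.96 FPKM in Avicel-labelled libraries, against 33.3, 25.8 and 33.7 in bran-labelled libraries. POX08109 had 4.53, 6.73 and 3.87 FPKM in Avicel-labelled libraries, against 178, 113 and 131 in bran-labelled libraries. All 3 genes ran S, F, T from high to low in Avicel-labelled libraries. POX08107 ran T, F, S in bran-labelled libraries, while POX08108 and POX08109 ran F, T, S there. The summed level of the 3 genes was 19.0, 34.0 and 10.5 FPKM in Avicel-labelled libraries and 394, 285 and 344 in bran-labelled libraries.

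The triplet POX04560 to POX04562 stood at a lower level. POX04560 had 4.62, 4.15 and 2.55 FPKM in Avicel-labelled libraries and 67.3, 70.8 and 58.9 in bran-labelled libraries. POX04561 had 2.60, 3.40 and 1.87 FPKM in Avicel-labelled libraries, against 54.3, 57.1 and 46.0 in bran-labelled libraries. POX04562 had 1.57, 1.74 and 0.95 FPKM in Avicel-labelled libraries, against 57.6, 64.8 and 55.0 in bran-labelled libraries. Replicate S was the highest of the bran-labelled libraries for all 3, an order (S, F, T) that 14 of the 136 genes showed. POX04560 ran F, S, T in Avicel-labelled libraries, while POX04561 and POX04562 ran S, F, T there. The next genes by number moved less or the other way. POX04563 had a mean of 12.5 FPKM in Avicel-labelled libraries and 21.3 in bran-labelled libraries. POX04564 had a mean of 107 FPKM in Avicel-labelled libraries and 42.3 in bran-labelled libraries, and POX04565 had 101 in Avicel-labelled libraries and 40.8 in bran-labelled libraries. Further up, POX04568 and POX04577 were again in the set, at 1.5 and 0.197 FPKM in Avicel-labelled libraries and 20.9 and 6.05 in bran-labelled libraries.

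The triplet POX03776 to POX03778 was led by its middle gene. POX03777 had 2.34, 1.42 and 1.84 FPKM in Avicel-labelled replicates F, S and T, against 115, 78.9 and 64.6 in bran-labelled replicates F, S and T. POX03776 had 0.27, 0.36 and 0.09 FPKM in Avicel-labelled libraries, against 9.40, 7.99 and 6.35 in bran-labelled libraries. POX03778 had 0.45, 0.65 and 0.23 FPKM in Avicel-labelled libraries, against 14.0, 10.3 and 10.2 in bran-labelled libraries. All 3 ran F, S, T in bran-labelled libraries, as 40 of the 136 genes did. POX03777 ran F, T, S in Avicel-labelled libraries, while POX03776 and POX03778 ran S, F, T there. The fourth triplet, POX09463 to POX09465, lay 2 numbers below a range set aside and had summed levels of 0.96, 3.23 and 0.96 FPKM in Avicel-labelled libraries and 75.2, 68.6 and 49.3 in bran-labelled libraries. Of the 18 pairs of adjacent genes in the set, 12 (66.7%) had the same order of bran-labelled libraries, against 20.6% of the other 9162 pairs. For the order of Avicel-labelled libraries it was 6 of 16 adjacent pairs without ties (37.5%) against 20% of the others. The pairs share genes, and no test was made.

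A looser stretch lay around POX08698. Among the 9 numbers from POX08695 to POX08703, POX08695, POX08698 and POX08703 were in the set, and all 4 other genes there with enough counts to be tested were lower at 2-fold or more. POX08696 was outside the set only by its level, at 30.1 FPKM in Avicel-labelled libraries and 1054 in bran-labelled libraries. POX08699, POX08700 and POX08702 missed the ratio limit, at 65.8, 48.9 and 105 FPKM in Avicel-labelled libraries and 377, 354 and 597 in bran-labelled libraries, with log2 fold changes of -2.51, -2.85 and -2.50. The edgeR adjusted p-values of these 3 genes were 0.000224, 0.000194 and 4.16e-05.

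The genes next to the set by number were not chosen by the rule and could be compared with the background. Of 190 tested genes at an adjacent number that were neither in the set nor set aside, 35 (18.4%) were lower at 2-fold or more in Avicel-labelled libraries, against 9.41% of all genes tested, and 8 (4.21%) were higher at 2-fold or more, against 7.03%. Their median log2 fold change was -0.24, against 0.0086 over all genes. The share over all genes tested counts the 136 genes and those set aside as well. At a distance of 2 numbers 10.2% of 186 genes were lower at 2-fold or more, at distances of 3 to 10 numbers the share was between 3.29% and 10.7%, and beyond 10 numbers it was 6.78% of 6662 genes. A neighbour lower at 2-fold or more was found beside 33 of the 136 genes. For 69 genes, neither neighbour was changed by 2-fold or more in either direction. A further 45 genes at an adjacent number were untested or filtered and carry no call, so the 69 may include genes beside them. Neighbours of the genes with no other gene of the set within 10 numbers were lower at 2-fold or more in 23 of 140 cases, or 16.4%. No strand information is given, so reads of overlapping neighbours may be mixed, and the part of this in the counts was not tested.

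**Figure D5:**
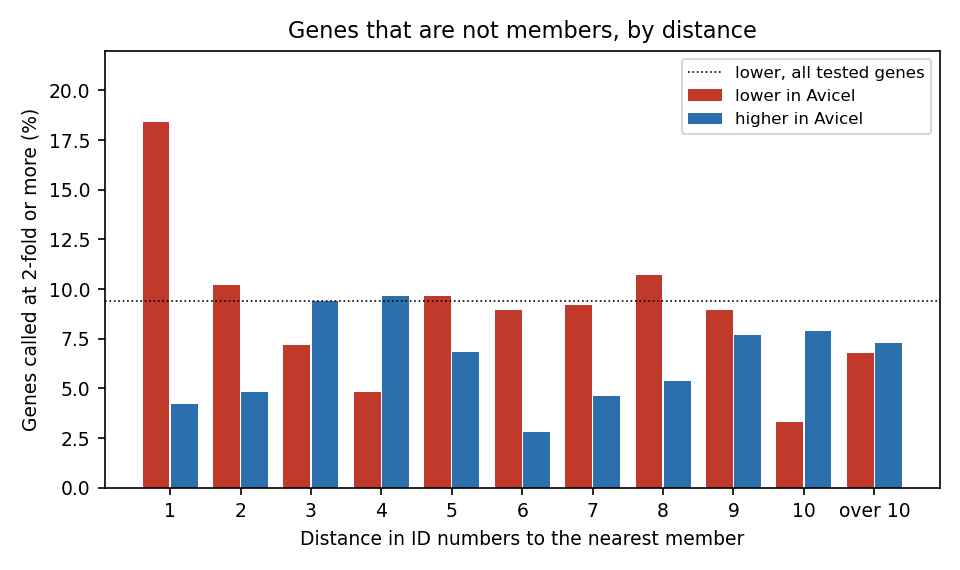
Share of tested genes outside the set (%) called lower (red) or higher (blue) at 2-fold or more in Avicel-labelled libraries, by distance in ID numbers to the nearest of the 136 genes. The dotted line is the 9.41% called lower among all genes tested; the bar at distance 1 stands at 18.4%.

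Some neighbours moved the opposite way. POX00353, in the set, had 10.04, 11.3 and 12.99 FPKM in Avicel-labelled replicates F, S and T, against 128, 155 and 128 in bran-labelled replicates F, S and T. POX00352, one number below, had 202, 208 and 196 FPKM in Avicel-labelled libraries and 30.9, 28.9 and 28.8 in bran-labelled libraries, and was 6.84-fold higher in Avicel-labelled libraries (edgeR log2 fold change 2.77 with an SE of 0.08, adjusted p = 5.79e-07). POX02210, in the set, had 1.92, 0.32 and 1.96 FPKM in Avicel-labelled libraries and 55.4, 27.0 and 29.7 in bran-labelled libraries. POX02209, one number below, had 6.47, 5.6 and 6.36 FPKM in Avicel-labelled libraries and 0.13, 0.63 and 0 in bran-labelled libraries, on 158 and 6 summed counts (edgeR log2 fold change 4.54 with an SE of 0.50, adjusted p = 0.000205). Its fold rests on those few counts: the log2 fold change was 6.31 without bran-labelled replicate S and 3.98 without bran-labelled replicate T. The groups did not overlap for either pair, and in both pairs the higher gene of one group of libraries was the lower gene of the other.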

How the data were processed

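Each deposited table holds, per the file headers, the expected count of a gene (an estimate that can be fractional, with no normalization) and its FPKM, scaled by the authors for length and depth. TPM, deposited for 1 library only, was not used. RSEM 1.2.12, Bowtie2 2.1.0, DESeq2 and BWA 0.7.10-r789 are listed, without their roles, per the submitters' processing notes; the genome build and strand handling were not given in the sources used here. Libraries were grouped by their sample labels. Members come from deposited FPKM by the rule above. Values counted as not whole differ from a whole number by over 0.005. For calls over all 8636 genes kept by filterByExpr, rounded expected counts were fitted with edgeR 4.0.16 (R 4.3.3, TMM, quasi-likelihood F-test, two-sided, no block, Benjamini-Hochberg adjustment, threshold 0.05). The same fit was also run on counts simulated from its own means, library sizes and dispersions. The SE of a fold change is derived from its F statistic. Alternatives used DESeq2 1.42.0, limma 3.58.1 on log2 FPKM made from the deposited FPKM, other filters, and each library left out. Members, comparisons and alternatives were chosen with earlier results of these data known. Named genes are POX07277, members at the extremes of level, ratio and spread, the 3 most abundant of the longest runs, genes beside the limits and the 2 neighbours with the largest rise; POX03096, POX07516, POX00353, POX02210 and genes around the runs, near the ranges set aside or with counts that were 0 or not whole were named after their values were seen.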

Additional observations from a re-analysis of the deposited data

How the results depend on the processing

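The number of genes meeting the rule was 136, and 247 with a ratio limit of 4, 75 with a ratio limit of 16, 153 with a wheat bran level of at least 2 FPKM and 120 with at least 10. It was 134 with group medians and 134 to 140 with each library left out, of which 128 to 135 were among the 136; rescaling FPKM by TMM factors or using the edgeR fold change gave 136. The median share kept was 5.61%, 5.19% to 5.82% with each library left out, and 9.12% with 1 added to each FPKM, which by construction raises low values. The summed share kept was 5.29%, and 4.99% to 5.64% with each library left out. Under other tests, filters and left-out libraries, 28 to 44 of 190 to 232 neighbours were lower at 2-fold or more. The share was 14.7% to 20.9%, against 35 of 190 (18.4%). Restricting the neighbours to genes beside a member with no other within 10 numbers, chosen after seeing the data, left 23 of a smaller set of 140 (16.4%). With the letters as a replicate block, 2328 genes were called lower, against 2373, and 36 neighbours at 2-fold or more. The correlation between libraries that share a letter, taken on deviations from group means, was 0.194 (F), -0.1 (S) and 0.225 (T). Between libraries of unlike letters it was -0.301 to 0.203, so T lay just above that range. The letters were not taken as pairs because the labels do not say that they mark a shared culture, batch or day. Alternatives added after seeing the data put Avicel-labelled replicate T lowest for 49.5% and 55.6% of the genes, against 48.5%, and bran-labelled replicate F highest for 52.2% and 58%, against 54.4%. POX07277, POX00352 and POX02209 kept direction and call in all 12 alternatives of the fit. The log2 fold change of POX02209, 4.54, was 6.31 without bran-labelled replicate S. Depth limits the fold of the 9 genes with 10 or fewer summed counts in the libraries labelled Avicel.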
